A study of Mus musculus with 7 samples.

Results

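The RNA of neutrophils sorted from mouse livers 24 h after acetaminophen-induced liver injury (AILI) was examined for 10 genes of MHC class I antigen presentation, chosen by gene symbol: the light chain B2m, the heavy chains H2-K1, H2-D1 and H2-T23, the peptide transport genes Tap1, Tap2 and Tapbp, and the immunoproteasome subunits Psmb8, Psmb9 and Psmb10. All 10 are among the 16047 genes of the deposited table and among the 9594 genes tested. C57BL/6 mice were given acetaminophen and either PBS (4 mice, replicates 5 to 8) or medium with MC-21, an antibody to the chemokine receptor CCR2 (3 mice, replicates 2 to 4). The antibody was given as 400 µL of medium with 29 µg/mL, and injections began 12 h before acetaminophen and were repeated every 24 h. MC-21 removes the Ly6Chi monocytes that infiltrate the injured liver, and the PBS livers kept them. From each liver 50000 cells were sorted as CD11b+ Ly6G+ Ly6Clo cells without CX3CR1-GFP, a gate that needs a reporter allele although the labels name C57BL/6 alone as the strain. Injured livers were the sole kind sampled, so no value for uninjured neutrophils enters.

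MHC class I molecules show fragments of a cell's own proteins at its surface to CD8+ T cells. A heavy chain pairs with B2m, the proteasome cuts the proteins, the TAP1 and TAP2 transporter moves the peptides into the endoplasmic reticulum, and tapasin, encoded by Tapbp, holds the heavy chain at the transporter until a peptide fits. Interferon raises the whole set and swaps the catalytic subunits of the proteasome for Psmb8, Psmb9 and Psmb10, which makes the immunoproteasome. Nearly all nucleated cells, neutrophils included, carry class I, in contrast to class II, which belongs mainly to professional antigen-presenting cells.

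The genes lie close together. In mm9, 8 of the 10 are on chromosome 17, inside 2117.0 kb from 34052844 (Tapbp) to 36169800 (H2-T23). Psmb9, Tap1, Psmb8 and Tap2 sit side by side in 34.3 kb, from 34318932 to 34353266. Psmb9 and Tap1 run in opposite directions, and the RefSeq starts of their transcripts are 226 bp apart in GRCm38.p6. H2-K1 spans 34132962 to 34137278 and H2-D1 35399675 to 35404444. B2m is on chromosome 2 (121973422 to 121978819) and Psmb10 on chromosome 8 (108459628 to 108462292). The annotation also places Patl2 across B2m and A930015D03Rik across H2-T23, both on the opposite strand, and Zbtb22 over 3421 bp of Tapbp on the same strand. Psmb8, Tap2 and Psmb10 are also overlapped by gene models of the opposite strand, and Psmb9 and Tap1 overlap at their starts. Whether reads were counted by strand is not given in the sources used here, so reads of such overlapping genes cannot be told apart.

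The start regions of the heavy chain and light chain genes are shown because they carry the elements by which these genes are known to be regulated together. RefSeq's table for GRCm38.p6 gave a start region for 9 of the 10 genes. The 150 bases before the start of H2-K1 (chr17:34000348-34000497, minus strand) and of B2m (chr2:122147537-122147686, plus strand) follow, 5′ to 3′. For H2-D1, which has a longer annotated transcript that covers its start region, a 28-base window is given (chr17:35262924-35262951, plus strand). Capitals mark, on either strand, GGGANTCC (the core of an NF-kappaB site), TTTCNNTT (the core of an interferon response element), TGACG (part of the X2 box) and CCAAT (the Y box).
H2-K1: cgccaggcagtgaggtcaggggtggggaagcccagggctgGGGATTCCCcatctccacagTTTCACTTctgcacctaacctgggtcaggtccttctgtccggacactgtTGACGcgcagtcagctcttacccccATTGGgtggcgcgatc
B2m: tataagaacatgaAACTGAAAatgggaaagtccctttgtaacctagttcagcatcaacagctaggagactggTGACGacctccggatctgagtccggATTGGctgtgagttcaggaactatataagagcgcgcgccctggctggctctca
H2-D1: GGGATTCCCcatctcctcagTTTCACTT

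The H2-D1 window and the same stretch of H2-K1 were identical at 27 of 28 bases. Within 250 bases upstream, GGGANTCC was found in 2 of the 9 regions, those of H2-K1 and H2-D1, against 3.42% of 27025 genes' regions. TTTCNNTT was found in 4 of the 9 regions (B2m, H2-K1, H2-D1 and H2-T23), against 21.6% of all. TGACG was found in 5 of 9 (17.9% of all) and CCAAT in 7 of 9 (34.5% of all). The regions of Tap1 (chr17:34187306-34187555) and Psmb9 (chr17:34187331-34187580) cover largely the same bases on opposite strands. The same TGACG and the same CCAAT are therefore counted for both genes, and the 9 regions are not all separate. In H2-K1, H2-D1 and B2m, TGACG on the transcribed strand was followed by CCAAT or its complement with 25 bases between their first letters. That arrangement was found in 18 of the 27025 regions (0.067%). The spacing was taken from these genes themselves, so their match to it was fixed in advance. H2-K1 and H2-D1, nearly identical in the window above, may not be separate cases. These are matches of letters in a window, not measurements of binding.

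The sorted cells carried neutrophil transcripts at high levels, with the summed RPKM (reads scaled to transcript length in kilobases and to the library's mapped reads) of 12 neutrophil markers between 18235 and 41577 in a library. S100a9 led that sum, at 12275 to 25041 RPKM. Transcripts of other liver cells were present too. The sum of 6 endothelial markers was between 1027 and 2320 RPKM, led by Clec4g, a lectin of liver sinusoidal endothelium, and that of 6 hepatocyte markers between 252 and 568 RPKM. The 12 monocyte and macrophage markers summed to between 1914 and 2253 RPKM in PBS neutrophils and between 1114 and 1552 RPKM in MC-21 neutrophils. Apoe led this sum, at 1216 to 1674 RPKM in PBS neutrophils and 803 to 1202 RPKM in MC-21 neutrophils. By the test used below, 4 of the 12 markers were lower and 0 higher, against 0.427% and 0.198% of all genes tested. Ccr2 was at 0 in MC-21 replicate 3 and at 0.2 and 0.39 RPKM in the other MC-21 libraries, against 1.91 to 3.26 RPKM in PBS neutrophils. B cell markers summed to between 10.7 and 29.9 RPKM in PBS libraries and to between 6.14 and 9.73 RPKM in MC-21 libraries, without overlap. Kupffer cell markers summed to between 56.3 and 84.4 RPKM in PBS libraries and to between 34.3 and 64.4 RPKM in MC-21 libraries. Of 3 tested genes in each of these lists, 0 had an adjusted p under 0.05 with limma. In each list 2 were lower at an unadjusted p under 0.05, against 11.2% of all genes tested. Summed T and NK cell markers were between 12.0 and 22.1 RPKM in PBS libraries and between 8.40 and 23.4 RPKM in MC-21 libraries. Of their 6 tested genes, 0 passed the adjusted test and 2 were lower at an unadjusted p under 0.05, beside the same 11.2% of all genes. In bulk RNA fewer cells of a type and less RNA per cell cannot be told apart. The part of such transcripts in the class I values was not tested. The depth read from the steps of low values was between 1592000 mapped reads (MC-21 replicate 3) and 3978000 mapped reads (PBS replicate 8).

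Class I genes ranked among the most abundant transcripts of these cells. By mean RPKM over the 7 libraries B2m ranked 16 of the 9594 genes tested, H2-D1 35, H2-K1 110, Psmb8 490 and H2-T23 499. Tapbp and Psmb10 followed at ranks 875 and 879, and Tap1, Tap2 and Psmb9 lay lower, at 2012, 2150 and 2699. These ranks compare levels per kilobase of transcript. The libraries were made from the 3′ ends of RNA, so that dividing by transcript length lowers the level of long genes such as Tap1. It raises that of short genes such as B2m (860 bases). In estimated reads on the longest annotated transcript, H2-D1 had 5750 to 16013 per library and B2m 4299 to 11172. Psmb9, the scarcest of the 10, rested on an estimated 97 to 284 reads per library, and the other 9 genes on 129 or more, if the longest annotated transcript was the one used.

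**Figure D1:**
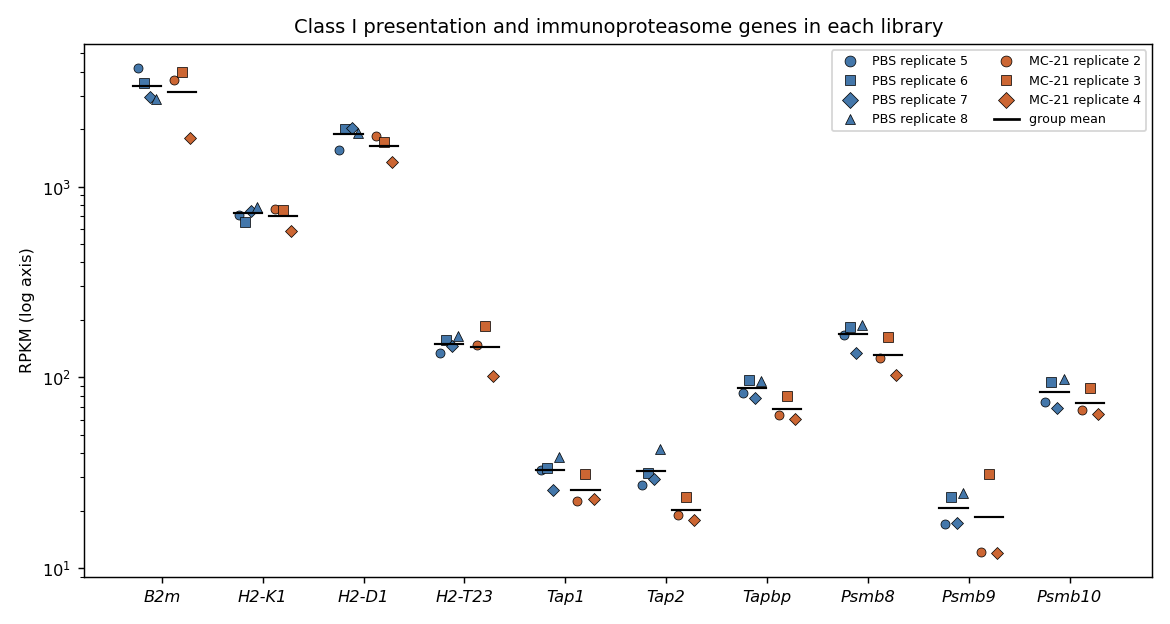
RPKM (vertical log axis) of the 10 genes in each of 4 PBS and 3 MC-21 libraries (points, 1 per mouse), with the mean of each group as a bar. B2m lies highest, between 1790 and 4172 RPKM, and the groups are apart in Tap2 alone, with MC-21 neutrophils at 17.9 to 23.5 RPKM and PBS neutrophils at 27.2 to 42.1 RPKM.

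The comparison of MC-21 with PBS neutrophils asks what the absence of infiltrating monocytes changes in neutrophils. None of the 10 genes passed it. On log2(RPKM + 1), limma with Benjamini-Hochberg adjustment over all 9594 genes gave adjusted p-values between 0.177 (Tap2) and 0.877 (H2-K1) for them, so that 0 of 10 had an adjusted p under 0.05, against 0.625% of all genes tested (0.427% lower and 0.198% higher). At an unadjusted p under 0.05 there were 2 of 10, Tap2 and Tapbp, both lower in MC-21 neutrophils, against 11.2% of all genes on that side and 14.7% on either. With at least a 2-fold change as well there were 0 of 10, against 2.7% of all genes. The count of 2 became 5 without MC-21 replicate 3, 4 without PBS replicate 7 and 1 without MC-21 replicate 2 or 4 or PBS replicate 6 or 8. It was 1 with quantile normalization, with each library centred on its median or without limma's trend. With each gene's own variance in place of limma's shared estimate the counts were 0 and 2 as well. All 10 log2 fold changes were below 0, as were those of 69.4% of all genes, and their median was -0.24 beside -0.15 over all genes tested. With each library centred on its median these medians were -0.08 and 0.02, and 8 of the 10 were below 0. The 95% interval of the difference held 0 for 8 of the 10 genes, and for 9 of 10 its lower end lay above -1, a 2-fold decrease.

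B2m, the invariant light chain of every class I molecule, had 4172, 3500.0, 2934 and 2876 RPKM in PBS replicates 5 to 8. In MC-21 replicates 2 to 4 it had 3615, 3972 and 1790 RPKM. Both groups overlapped, and MC-21 replicate 4 lay below all other libraries. The means were 3370.5 ± 604 RPKM (SD, 4 PBS mice) and 3126 ± 1170.3 RPKM (SD, 3 MC-21 mice), and the log2 fold change was -0.17 (standard error 0.26, limma adjusted p = 0.795). Without MC-21 replicate 4 the log2 fold change was 0.19.

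H2-K1 and H2-D1, the classical heavy chains of the C57BL/6 haplotype, present peptides to CD8+ T cells. H2-K1 had the lowest coefficient of variation of the 10 genes in each group, 7.84% in PBS neutrophils and 14.3% in MC-21 neutrophils. It had 711, 653, 749 and 786 RPKM in PBS replicates 5 to 8 and 762, 755 and 584 RPKM in MC-21 replicates 2 to 4. Its log2 fold change was -0.06 with a 95% interval from -0.36 to 0.25 (limma adjusted p = 0.877). MC-21 replicates 2 and 3 lay inside the PBS range, while replicate 4 lay under it, and without replicate 4 the log2 fold change was 0.07. H2-D1 had 1550.2, 2009.9, 2026 and 1915 RPKM in PBS replicates 5 to 8 and 1832, 1718 and 1341 RPKM in MC-21 replicates 2 to 4. The groups overlapped, with a log2 fold change of -0.21 and an interval from -0.55 to 0.13 (limma adjusted p = 0.565). Within a library H2-D1 was 2.18 to 3.08 times as abundant as H2-K1 per kilobase.

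H2-T23 encodes Qa-1, a nonclassical heavy chain that presents leader peptides of other class I chains to receptors of NK and T cells. It had 133, 158, 145 and 164 RPKM in PBS replicates 5 to 8. In MC-21 replicates 2 to 4 it had 148, 186 and 101 RPKM, so that MC-21 neutrophils held both the highest and the lowest value. Its log2 fold change was -0.09 (interval -0.54 to 0.36, limma adjusted p = 0.862) and 0.14 without MC-21 replicate 4. Heavy chain genes share sequence. Of the 50-base words of the longest coding transcript, 14.3% of those of H2-D1, 8.87% of those of H2-K1 and 14.8% of those of H2-T23 also occur in another gene. The share was 17.1%, 0.797% and 24.3% in the last 300 bases, and how reads of several origins were counted is not given in the sources used here. No such word of B2m, Psmb8, Psmb9 or Psmb10 occurs in a coding transcript of another gene name. The annotation holds overlapping gene models that share the name Psmb9, and words shared between those were not counted.

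Among the genes of peptide transport and loading, Tap2 had the difference of largest size of the 10. Tap2, the second chain of the transporter, had 27.2, 31.4, 29.1 and 42.1 RPKM in PBS replicates 5 to 8. In MC-21 replicates 2 to 4 it had 18.9, 23.5 and 17.9 RPKM. Every MC-21 library lay below every PBS library, as in 10.2% of all genes tested. The means were 32.4 ± 6.65 RPKM (SD, 4 PBS mice) and 20.1 ± 2.97 RPKM (SD, 3 MC-21 mice), and the difference did not pass the adjusted test (log2 fold change -0.65, standard error 0.19, unadjusted p = 0.0064 and limma adjusted p = 0.177). Its interval ran from -1.08 to -0.23. With each library centred on its median the log2 fold change was -0.49.

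Tap1, the partner of Tap2, had 32.5, 33.6, 25.7 and 38.3 RPKM in PBS replicates 5 to 8 and 22.4, 31.3 and 23.04 RPKM in MC-21 replicates 2 to 4. PBS replicate 7 lay among the MC-21 libraries (log2 fold change -0.34, interval -0.76 to 0.08, limma adjusted p = 0.438). Tapbp had 82.8, 97.1, 77.7 and 95.6 RPKM in PBS replicates 5 to 8. In MC-21 replicates 2 to 4 it had 63.6, 80.0 and 60.5 RPKM, and MC-21 replicate 3 overlapped the PBS range. Its log2 fold change was -0.38 (standard error 0.15, unadjusted p = 0.0365 and limma adjusted p = 0.314). Reads of Zbtb22, which overlaps Tapbp on the same strand, may be part of these values, and this was not tested.

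None of the immunoproteasome subunits passed the test, and the groups overlapped in each. Psmb8 (LMP7), which takes the place of Psmb5, had 168, 183, 134 and 188 RPKM in PBS replicates 5 to 8 and 126, 163 and 102 RPKM in MC-21 replicates 2 to 4 (log2 fold change -0.38, interval -0.80 to 0.05, limma adjusted p = 0.393). MC-21 replicate 3 lay in the PBS range. Psmb10 (MECL-1), which takes the place of Psmb7, had 74.6, 94.6, 69.3 and 98.2 RPKM in PBS replicates 5 to 8. In MC-21 replicates 2 to 4 it had 67.7, 87.6 and 64.0 RPKM (log2 fold change -0.20, limma adjusted p = 0.65), and the groups overlapped.

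Psmb9 (LMP2), which takes the place of Psmb6, had the widest spread within a group. In MC-21 neutrophils it had 12.2, 31.2 and 12.0 RPKM in replicates 2 to 4, and in PBS neutrophils 17.1, 23.5, 17.3 and 24.7 RPKM in replicates 5 to 8. The highest value and the 2 lowest values were all in MC-21 neutrophils, whose SD was 59.7% of their mean, against 19.6% in PBS neutrophils. The log2 fold change was -0.27 (interval -0.99 to 0.44, limma adjusted p = 0.729) and -0.70 without MC-21 replicate 3, with an adjusted p of 0.233. MC-21 replicate 3 was the library of lowest depth.

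The ratio of each immunoproteasome subunit to its constitutive counterpart, taken within a library, does not depend on the scaling between libraries. Psmb8/Psmb5 was 0.889, 0.67, 0.669 and 0.992 in PBS replicates 5 to 8 and 0.515, 0.784 and 0.602 in MC-21 replicates 2 to 4. The groups overlapped, and the difference in log2 ratio was -0.34 (two-sided exact permutation test over 35 splits, p = 0.2, adjusted over the 3 ratios p = 0.6). The shifts that this test did not reject ran from -1.09 to 0.23. Psmb9/Psmb6 was 0.0875, 0.149, 0.116 and 0.145 in PBS replicates 5 to 8 and 0.0805, 0.173 and 0.0717 in MC-21 replicates 2 to 4. Its difference was -0.26 in log2 ratio (exact permutation p = 0.486, adjusted p = 0.729), with shifts from -1.0 to 0.94 not rejected. Psmb10/Psmb7 was 1.64, 3.18, 1.68 and 1.61 in PBS replicates 5 to 8 and 1.70, 1.80 and 1.78 in MC-21 replicates 2 to 4. PBS replicate 6 stood apart there, and the difference was -0.14 with it (exact permutation p = 1, adjusted p = 1). Without PBS replicate 6 the difference was 0.09, and every MC-21 ratio lay above every remaining PBS ratio. The exact permutation p of 0.1 there is the smallest that 3 libraries in each group allow. The smallest p this design allows with all 7 libraries is 0.0286.

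**Figure D2:**
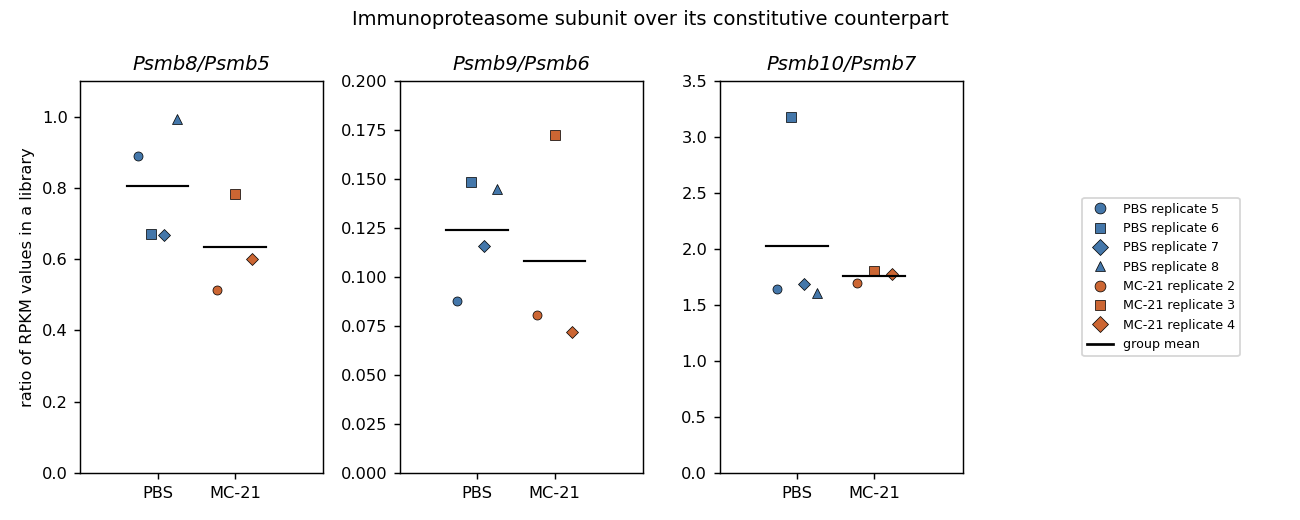
Ratio of the RPKM of an immunoproteasome subunit to that of its constitutive counterpart (vertical axis, from 0) in each of 4 PBS and 3 MC-21 libraries, with the group mean as a bar. The groups overlap in all 3 ratios, and the PBS replicate 6 value of 3.18 for Psmb10/Psmb7 lies above the other 6 libraries, which are between 1.61 and 1.80.

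Much of the shared variation of the 10 genes between mice rested on 1 library. With the group means removed, Pearson's r of log2(RPKM + 1) over the 7 libraries was above 0 in all 45 pairs, with a median of 0.69, beside 51.6% of pairs above 0 and a median of 0.02 over all pairs of the 9594 genes tested. Without MC-21 replicate 4 it was above 0 in 34 of 45 pairs, with a median of 0.35 and values from -0.81 to 0.98, beside 51.0% and 0.02 over all pairs. This comparison was added after the values were seen. Over the 7 libraries it was highest between Tapbp and Psmb10 (0.98) and lowest between H2-D1 and Tap1 (0.02). The libraries share depth and cell makeup across genes, so these values are a description. MC-21 replicate 4 held the lowest value of 9 of the 10 genes, all but Tap1, and PBS replicate 8 the highest of 5. The mean of the 10 genes, each centred over the libraries, was -0.46 on the log2 scale in MC-21 replicate 4, where the median of all genes was -0.13. That library also had the highest sum of neutrophil markers (41577 RPKM) and the lowest sum of monocyte and macrophage markers (1114 RPKM). Without it the median log2 fold change of the 10 genes was -0.09, beside -0.10 over all genes, and 7 of 10 were below 0. Among the 5 genes of at least 10 RPKM whose profile was most like that mean over the 7 libraries, of 4125 searched, were Lmo2, Cyb5a, Cpsf3l and Myzap, with Pearson's r between 0.96 and 0.97 and Spearman's rho between 0.93 and 0.96.

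Around the 10 genes, 51 others of the class I pathway were tested, and 0 had an adjusted p under 0.05 with limma, against 0.625% of all genes. At an unadjusted p under 0.05, 4 were lower (11.2% of all genes) and 3 higher (3.59% of all genes). Their p-values were seen before they were named here. Among those lower was Psme1, the alpha chain of the interferon-inducible proteasome activator PA28 (log2 fold change -0.51, limma adjusted p = 0.237). It had a mean of 226 ± 45.8 RPKM (SD, 4 PBS mice) and 157 ± 16.6 RPKM (SD, 3 MC-21 mice). Its groups did not overlap, with MC-21 below PBS as in 10.2% of all genes tested. Its partner Psme2 had a log2 fold change of 0.21 at 2.09 to 7.24 RPKM. Also on that side were the heavy chain gene H2-T9 (log2 fold change -0.55, limma adjusted p = 0.264) and the lipid-presenting Cd1d1 (log2 fold change -0.64, limma adjusted p = 0.317).

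Of the other heavy chains, H2-Q10, known as a secreted class I molecule of the liver, had the highest level. It averaged 256 ± 31.0 RPKM (SD, 4 PBS mice) and 274 ± 14.7 RPKM (SD, 3 MC-21 mice) (log2 fold change 0.11, limma adjusted p = 0.755), above H2-T23 in every library. Some heavy chain values were not separate measurements. H2-T9 was 33.3 times H2-T22 in all 7 libraries, with a coefficient of variation of the ratio of 0.0016%, and H2-Q6 was 4.51 times H2-Q8 in the 4 libraries where both were above 0. No gene kept so constant a ratio to any of the 10 members, for which the smallest coefficient of variation was 3.31% (Tapbp with U2surp).

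The genes of peptide folding and loading did not pass either. Calr, a chaperone of the loading complex, averaged 351 ± 85.5 RPKM (SD, 4 PBS mice) and 325 ± 75.4 RPKM (SD, 3 MC-21 mice), with a log2 fold change of -0.10 (interval -0.64 to 0.43, limma adjusted p = 0.868). Log2 fold changes were -0.27 for Canx, -0.32 for Pdia3, -0.39 for Erap1 (the peptide-trimming aminopeptidase) and -0.20 for Tapbpl, with adjusted p-values from 0.508 to 0.844. Pdia3 ranged from 1.36 to 11.7 RPKM between libraries of both groups.

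None of 22 regulators tested passed the adjusted test, and those of lowest p were receptor and kinase genes. Nlrc5, the transactivator of class I genes, was low, at 2.33 to 4.36 RPKM in PBS neutrophils and 2.1 to 3.8 RPKM in MC-21 neutrophils (log2 fold change -0.09, limma adjusted p = 0.891). Irf1, an interferon-induced activator of class I and immunoproteasome promoters, averaged 60.1 ± 7.35 RPKM (SD, 4 PBS mice) and 53.8 ± 5.61 RPKM (SD, 3 MC-21 mice) (log2 fold change -0.16, limma adjusted p = 0.675). The 3 genes higher at an unadjusted p under 0.05 belong to interferon-gamma signalling. Ifngr1, the ligand-binding receptor chain, had 82.6, 94.5, 81.4 and 87.2 RPKM in PBS replicates 5 to 8 and 129, 126 and 166 RPKM in MC-21 replicates 2 to 4 (log2 fold change 0.68, limma adjusted p = 0.076). Jak2, the kinase bound to its partner chain, had 23.04, 39.5, 28.6 and 33.6 RPKM in PBS replicates 5 to 8 and 65.3, 53.1 and 56.9 RPKM in MC-21 replicates 2 to 4 (log2 fold change 0.91, limma adjusted p = 0.0779). In both genes every MC-21 library lay above every PBS library, as in 3.1% of all genes. Socs1, which inhibits JAK kinases, had a log2 fold change of 1.44 (limma adjusted p = 0.155) with overlap between the groups. Jak2 passed the adjusted test with each library centred on its median (adjusted p = 0.041) and without PBS replicate 6 (adjusted p = 0.0445), and Socs1 without PBS replicate 6 (adjusted p = 0.0128).

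**Figure D3:**
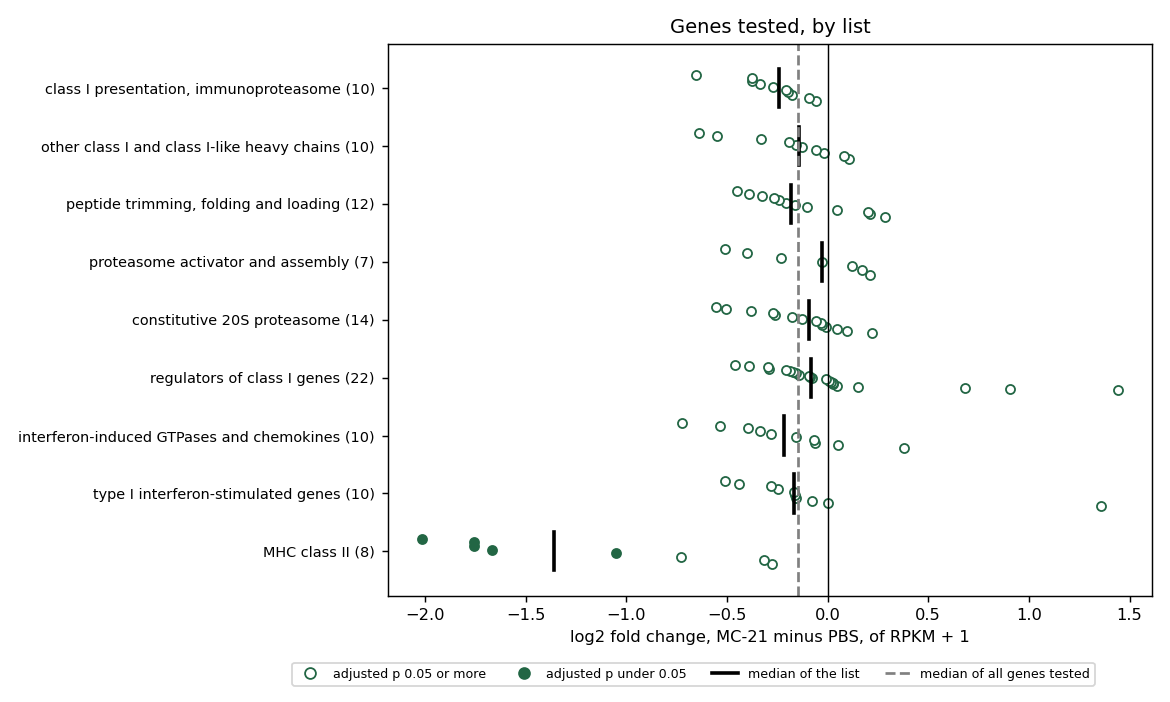
Log2 fold change of RPKM + 1, MC-21 minus PBS (horizontal axis), of each tested gene in 9 lists (rows, number tested in parentheses), with the median of each list as a bar and that of all genes tested as a dashed line at -0.15. Filled points, with an adjusted p under 0.05, occur in the MHC class II row alone.

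Other products of interferon signalling were measured beside the class I set. Of 20 interferon-induced genes tested outside the class I pathway, 0 had an adjusted p under 0.05 with limma and 1 an unadjusted p under 0.05. Over all genes tested these shares were 0.625% and 14.7%. Median log2 fold changes were -0.22 over the 10 GTPases and chemokines and -0.17 over the 10 type I interferon-stimulated genes, beside -0.15 over all genes. The gene with an unadjusted p under 0.05 was Irf7 (log2 fold change 1.36, limma adjusted p = 0.0697). It had a mean of 99.2 ± 31.3 RPKM (SD, 4 PBS mice) and 256 ± 84.0 RPKM (SD, 3 MC-21 mice). Irf7 had adjusted p-values of 0.0323 with each library centred on its median and 0.032 without PBS replicate 6. The 14 genes of the constitutive 20S proteasome had a median log2 fold change of -0.09 and 0 calls at either threshold. Psmb5, Psmb6 and Psmb7, whose places the immunoproteasome subunits take, had log2 fold changes of -0.03, -0.01 and -0.06.

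MHC class II was the one list of these pathways with genes that passed the adjusted test. Of its 8 tested genes, 5 were lower with an adjusted p under 0.05 (0.427% of all genes tested), and the median log2 fold change was -1.36. The study picked several of them from these libraries, so this count is not independent evidence of their direction. By flow cytometry, a measure of protein, the study also reported a smaller fraction of MHCII+ neutrophils after monocyte ablation. H2-Ab1 fell by 2.01 and H2-Aa by 1.76 on the log2 scale (limma adjusted p = 0.00077 and 0.0016). The 95% intervals of the other 3 tested class II genes, H2-DMa, H2-Oa and H2-Ob, held 0. The class I heavy chains together had 2.34, 3.65, 4.06 and 3.90 times the RPKM of H2-Aa, H2-Ab1 and H2-Eb1 together in PBS replicates 5 to 8, and 11.4, 11.6 and 9.35 times in MC-21 replicates 2 to 4. The sum of the class I heavy chains was between 2394 and 2920 RPKM in PBS neutrophils and between 2026 and 2741 RPKM in MC-21 neutrophils. The sum of the class II chains was between 719 and 1022 RPKM in PBS neutrophils and between 217 and 240 RPKM in MC-21 neutrophils. The difference between the class I and class II lists itself was not tested. Of the cells that carry class II, monocytes and macrophages and B cells had lower marker sums in every MC-21 library than in every PBS library. All 3 tested Kupffer cell markers had log2 fold changes below 0. Dendritic cells, which also carry class II, had marker sums that overlapped between the groups. The lowest was in PBS replicate 7 (4.62 RPKM) and the highest in MC-21 replicate 3 (10.7 RPKM). Of 2 tested dendritic cell markers, 1 had a log2 fold change below 0 and 1 above 0. The part of all these cells in the class II values was not tested. The count of 5 rested on several libraries, with 2 without MC-21 replicate 4 or PBS replicate 8 and 3 without MC-21 replicate 2, MC-21 replicate 3 or PBS replicate 7. It was also 2 without a filter on low values and 0 with each gene's own variance.

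**Figure D4:**
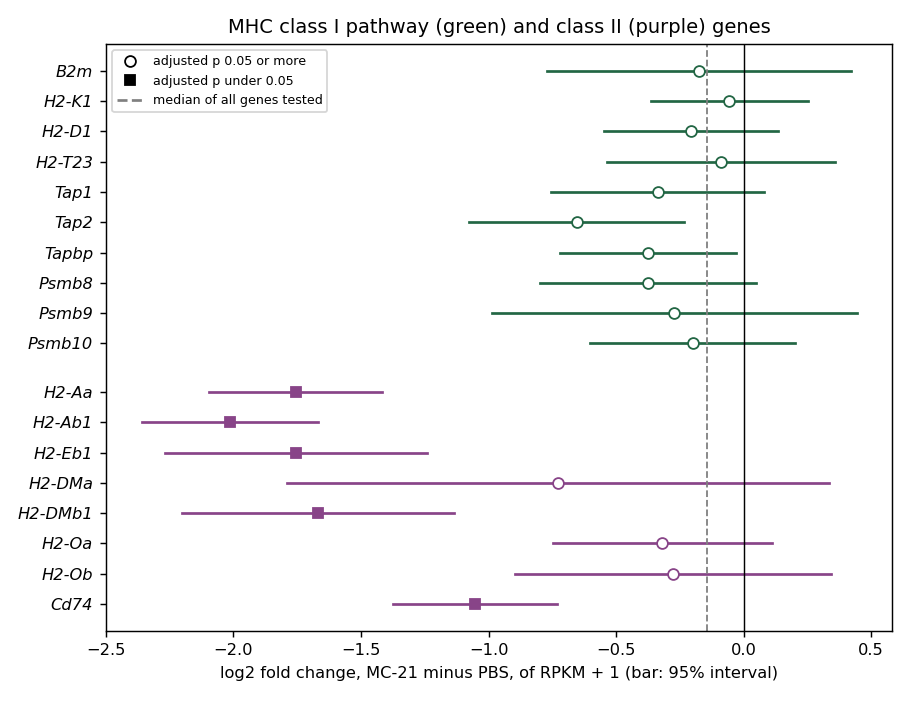
Log2 fold change of RPKM + 1, MC-21 minus PBS, with its 95% interval from limma (horizontal axis), of the 10 class I presentation and immunoproteasome genes and of the 8 tested MHC class II genes. In the first set 8 of 10 intervals hold 0 and all adjusted p-values there are at 0.177 or above, while 5 class II genes, drawn as squares, lie at -1.05 or below.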

How the data were processed

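The authors sorted neutrophils from 7 livers, prepared 3′ RNA-seq libraries and sequenced them on an Illumina NextSeq. Reads were mapped to mm9 with HISAT 0.1.5, converted with SAMtools and summarised in Partek 6.6, and the authors deposited RPKM per gene and library. The annotation, strand use and treatment of multiply mapped reads are not given in the sources used here. Each column was matched to 1 mouse by its label.

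MC-21 was compared with PBS on log2(RPKM + 1) as deposited, keeping genes whose mean reached 1 RPKM. That scale understates changes of low genes. R 4.3.3 and limma 3.58.1 were used (lmFit, then eBayes with trend), p-values were adjusted by Benjamini-Hochberg across every tested gene, and the fit was checked on simulated data with large changes. The study's cutoffs (2-fold, unadjusted p of 0.05) served as an alternative. For ratios an exact permutation test, two-sided, was used. RPKM holds no counts, so no count test was run. Depth was read from genes with 1 annotated transcript and under 1 RPKM, whose values step by 1 read. By library, 73.3 to 78.1% of these values came within 0.1 of whole reads, so depth is an estimate. Estimated reads cover counting error only. Separate mice were replicates, and the labels give no batch. Named genes were the 10 members, their constitutive counterparts, regulators and loading genes set by rule, genes with an adjusted p under 0.05, at most 2 per comparison list, and the 5 genes of most similar profile. Members and lists were chosen with earlier results of these data known. Positions come from the mm9 GENCODE annotation, start regions from RefSeq for GRCm38.p6. No sequence was printed for Tap2, and some genes that the rule names are not reported here. Python 3.11.15 and matplotlib 3.10.9 made the tables and figures.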

Additional observations from a re-analysis of the deposited data

Results flagged for a closer look

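In the 4 PBS libraries, 3 of the values searched stood apart from the rest of their group, which chance gives in about 1 of 20 groups. Psmb5 had 273 RPKM in PBS replicate 6, against 189 to 199.9 RPKM in the other PBS libraries. The Psmb10/Psmb7 ratio was 3.18 in the same library, against 1.61 to 1.68. C1qc, a macrophage gene, had 67.4 RPKM in PBS replicate 7, against 78.1 to 79.9 RPKM. These values were among 35 searched.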

How the results depend on the processing

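The 0 calls among the 10 class I genes held under pseudocount 0.1, no filter, a 5 RPKM filter, quantile normalization, median centring, limma without a trend, each gene's own variance and each library left out in turn, where the smallest adjusted p of the 10 was between 0.15 and 0.378. An unadjusted p under 0.05 gave 2 lower. Directions turned for H2-K1 (0.11) and H2-T23 (0.073) with median centring. With libraries left out, log2 fold changes ran from -0.39 to 0.19 for B2m, -0.12 to 0.069 for H2-K1, -0.29 to 0.14 for H2-T23 and -0.77 to -0.53 for Tap2, and the Psmb10/Psmb7 difference from -0.23 to 0.093. Over all genes, 41 lower and 19 higher calls became 4 and 0 without a filter, 4 and 0 with each gene's own variance, 44 higher with median centring (30 lower) and 11 higher without a trend. At an unadjusted p under 0.05 they were 1071 and 344, and 161 and 98 with at least 2-fold as well. With libraries left out they ran from 8 to 49 lower and from 1 to 53 higher. MHC class II calls were 2 without a filter, 0 with each gene's own variance and 2 to 5 with libraries left out. Class I pathway calls rose from 0 to 1 with median centring and were 0 to 2 with libraries left out, and interferon-induced calls rose to 1 and were 0 to 1. The causes were not tested. No paired analysis was possible because the groups share no replicate number. The 3 MC-21 libraries limit what could be detected, and the intervals above give that limit.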

Other observations

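MC-21 replicate 3 was high both in Psmb9 (31.2 RPKM, against 12.2 and 12.0 RPKM in the other MC-21 libraries) and in the class II peptide loader H2-DMa (39.0 RPKM, against 9.96 and 7.37 RPKM). H2-DMb1, which pairs with H2-DMa, had 2.45 RPKM in that library, against 2.83 and 2.52 RPKM. The cytotoxic cell gene Gzma was at 10.7 RPKM there, against 3.19 and 1.64 RPKM, and the endothelial gene Clec4g at 1539 RPKM, against 819 and 583 RPKM. The library was also the shallowest, and the part of these in the Psmb9 value was not tested.

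B2m varied against its heavy chains. The ratio of B2m to the sum of H2-K1, H2-D1 and H2-T23 was 1.74, 1.24, 1.0046 and 1.0037 in PBS replicates 5 to 8 and 1.32, 1.49 and 0.884 in MC-21 replicates 2 to 4. The highest value was in a PBS library and the lowest in an MC-21 library, and the groups overlapped. These are ratios of RPKM, so their size depends on the division by transcript length.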
